A study of Homo sapiens with 32 samples.

Results

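SNAI1, SNAI2, TWIST1, TWIST2, ZEB1, ZEB2 and PRRX1 encode transcription factors of mesenchymal cells, and their transcripts are described here in RH4 cells treated with 4 compounds aimed at the coactivators CBP and p300. The genes were taken by symbol, 7 of the 18980 coding genes in each deposited table. SNAI2 was chosen by its measured CPM in these same libraries (a dose difference that varied between compounds), so its differences are given as a description with no test. The other 6 were added by family and role, with earlier results of these data known. RH4 is an established cell line of human alveolar rhabdomyosarcoma, a muscle-lineage sarcoma that commonly carries a PAX3-FOXO1 fusion.

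The 20 RNA-seq libraries of total RNA covered the compounds JQAD, A485, dCBP and IHK-44 in doses of 1000 and 100 nM, harvested after 2 or 6 h, beside DMSO (solvent) and NT libraries of both times. The labels do not spell out NT, and the series describes the compounds together as inhibitors or degraders of CBP/p300. A485 is widely used as an inhibitor of the acetyltransferase activity of these proteins. Each combination of compound, dose and time had 1 library, all from the same cell line and all with the same code in their library names. The total per library was 13466631 to 16799327 expected counts over coding genes. All 9 rhabdomyosarcoma markers, among them MYOD1, MYOG and DES, were at 1 CPM (counts scaled to the library's coding total) or more in the DMSO and NT libraries. The summed level of 5 leukocyte markers was 1.52 to 2.00 CPM in those 4 libraries and 1.06 to 2.83 CPM in the treated ones, and that of 5 endothelial markers was 0.596 to 1.81 CPM and 0.442 to 2.04 CPM.

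Factors of the Snail family (SNAI1, SNAI2) and the ZEB family (ZEB1, ZEB2) are zinc finger proteins that bind E-box sequences and mostly repress, with CDH1 (E-cadherin) as the textbook target in epithelial-mesenchymal transition. TWIST1 and TWIST2 are basic helix-loop-helix factors that pair with E proteins, and PRRX1 is a paired-type homeobox factor of limb and craniofacial mesenchyme. In the embryo SNAI2 and TWIST1 act in neural crest and early mesoderm, and SNAI2 is also known in myogenic precursors, where Snail factors occupy E-boxes that MYOD1 can bind.

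The series title names the density of CpG islands, so the DNA just upstream of the members' start sites is shown with each CG dinucleotide in capitals. RefSeq start sites on GRCh38.p14 were matched for 4 of the 7 genes (ZEB1, ZEB2, TWIST2 and PRRX1). The 3 windows printed are the 250 bases before the first listed start of ZEB1 (chr10:31318167-31318416, plus strand), of ZEB2 (chr2:144520120-144520369, minus strand) and of TWIST2 (chr2:238847835-238848084, plus strand), each read 5′ to 3′ on the gene's strand. ZEB1 and ZEB2 are shown because both changed with treatment, and TWIST2 because it was the member with no counts.
ZEB1: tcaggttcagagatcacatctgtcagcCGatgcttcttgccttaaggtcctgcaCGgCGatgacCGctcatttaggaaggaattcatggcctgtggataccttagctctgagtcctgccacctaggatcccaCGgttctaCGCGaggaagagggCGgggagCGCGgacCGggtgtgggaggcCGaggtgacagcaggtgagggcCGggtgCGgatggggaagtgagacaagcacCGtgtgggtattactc
ZEB2: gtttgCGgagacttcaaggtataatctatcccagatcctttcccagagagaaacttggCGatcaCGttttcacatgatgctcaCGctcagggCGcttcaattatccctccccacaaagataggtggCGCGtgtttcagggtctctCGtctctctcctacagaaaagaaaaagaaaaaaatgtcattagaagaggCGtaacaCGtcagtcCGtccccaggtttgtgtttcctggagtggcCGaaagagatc
TWIST2: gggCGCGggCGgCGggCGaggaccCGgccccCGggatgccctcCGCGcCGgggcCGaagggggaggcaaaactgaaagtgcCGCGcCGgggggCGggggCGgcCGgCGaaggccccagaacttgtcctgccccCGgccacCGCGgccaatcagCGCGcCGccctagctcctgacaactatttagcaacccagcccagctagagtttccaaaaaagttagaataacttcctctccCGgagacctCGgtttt
The TWIST2 window held 26 CG dinucleotides, the ZEB1 window 15 and the ZEB2 window 12. Over 35116 windows of this length upstream of RefSeq starts the median was 11, with quartiles of 3 and 23. The window of PRRX1 (chr1:170663881-170664130, plus strand), which lies inside the annotated gene, held 6. ZEB1 has 7 listed starts, and their windows held 7 to 27. The E-box CAGGTG or its reverse complement CACCTG, searched on both strands, was found once in the printed ZEB1 window and not in those of ZEB2, TWIST2 and PRRX1, against 17.5% of all windows. The window of another ZEB1 start (chr10:31318966-31319215) held 2, and those of the remaining ZEB1 starts held 0. These letters are a description of the sequence and say nothing of binding.

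Per transcript length, SNAI2, ZEB2 and SNAI1 were the most abundant members in the DMSO and NT libraries. Their TPM (the length-corrected transcript share) over the DMSO and NT libraries was 47.1 to 65.2 for SNAI2, 41.8 to 50.8 for ZEB2 and 31.2 to 53.2 for SNAI1, and these ranges overlapped. ZEB1 followed at 19.5 to 20.5 TPM, TWIST1 at 2.33 to 3.69 TPM and PRRX1 at 0.25 to 0.56 TPM, with no overlap between these 3. TWIST2 had 0 counts in each of the 20 libraries, which allows up to 3 counts per library, or 0.179 to 0.223 CPM. The annotated genes lie at chr20:49982980-49988886 (SNAI1), chr2:144384081-144520119 (ZEB2), chr10:31318417-31529804 (ZEB1), chr7:19113047-19117636 (TWIST1), chr1:170662768-170739421 (PRRX1) and chr2:238848085-238910534 (TWIST2).

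**Figure D1:**
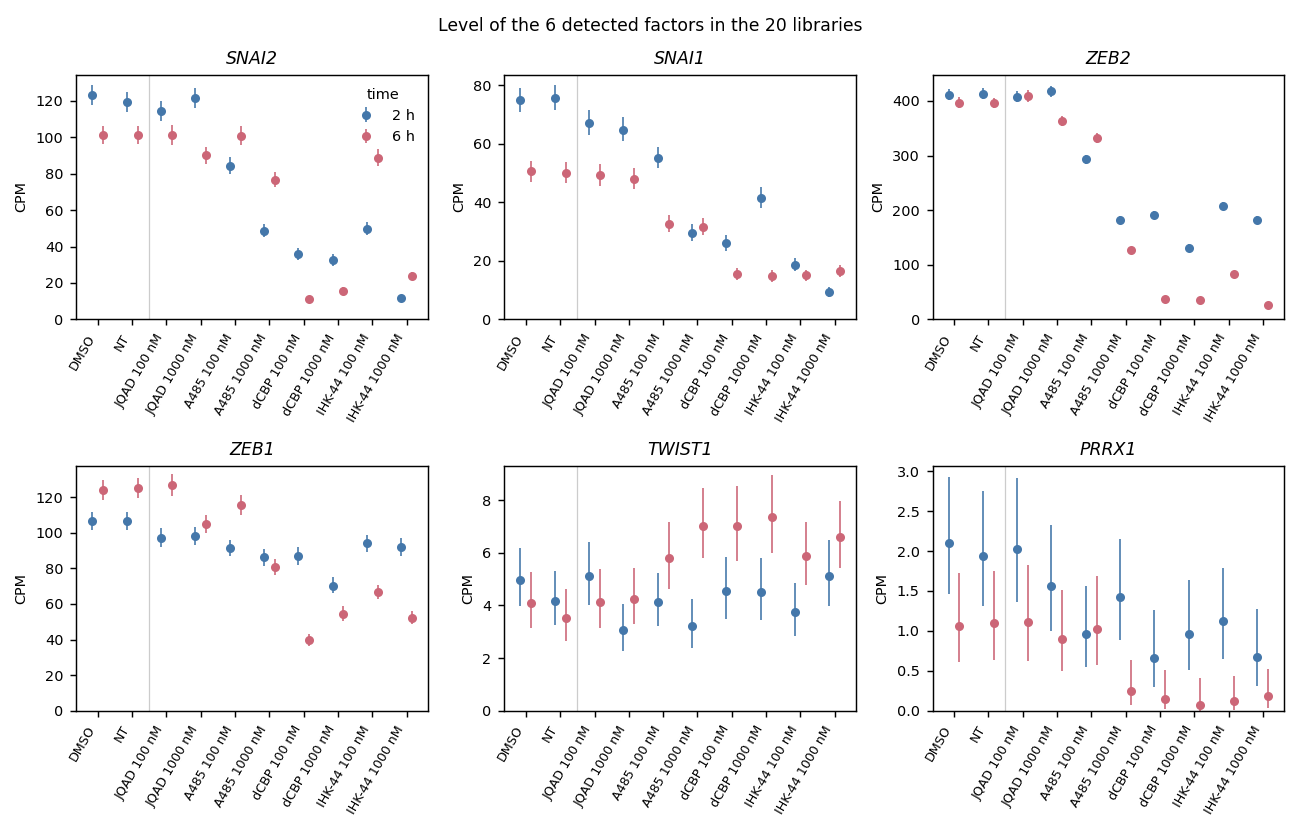
Level (CPM, linear axes from 0) of SNAI2, SNAI1, ZEB2, ZEB1, TWIST1 and PRRX1 in each of the 20 libraries, blue for 2 h and red for 6 h, with bars for the 95% Poisson counting interval. ZEB2 lay between 363 and 418 CPM in all DMSO, NT and JQAD libraries and fell to 26.2 CPM with IHK-44 at 1000 nM for 6 h, while TWIST1 stayed between 3.06 and 7.37 CPM throughout.

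SNAI2 was lower with A485, dCBP and IHK-44, and its course in time differed between them: from 2 h to 6 h it climbed back with A485 and IHK-44 and dropped further with dCBP. SNAI2 was at 123 CPM (2 h) and 101 CPM (6 h) in DMSO, and at 119 and 101 CPM in NT. The 4 JQAD libraries were at 114 and 101 CPM (100 nM) and 121 and 90.0 CPM (1000 nM). JQAD at 1000 nM for 6 h was thus the only one of these 8 libraries below 100 CPM.

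IHK-44 gave the lowest 2 h level of SNAI2. With 1000 nM it was 11.7 CPM at 2 h and 23.8 CPM at 6 h, and with 100 nM it was 49.7 and 88.8 CPM. These were 9.48% (95% counting interval 8.01 to 11.2) and 23.5% (21.0 to 26.2) of the DMSO library of the same time at 1000 nM, and 40.4% and 87.8% at 100 nM. On the authors' TPM scale the 100 nM libraries stood further below DMSO. Their log2 ratios were -1.81 at 2 h and -0.62 at 6 h, against -1.29 and -0.19 in CPM. The 6 h level was 204% (169 to 247) of the 2 h level at 1000 nM and 179% (164 to 195) at 100 nM, whereas in DMSO it was 82.3%. At both times the higher dose left about the same fraction of the level seen at the lower dose, 23.5% at 2 h and 26.8% at 6 h.

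A485 showed the same course with a smaller fall. SNAI2 was 48.7 CPM at 2 h and 76.7 CPM at 6 h with 1000 nM, and 84.4 and 101 CPM with 100 nM. That is 39.6% (36.4 to 43.1) and 75.8% (70.3 to 81.8) of DMSO at 1000 nM, and 68.6% and 99.5% at 100 nM, so the 6 h library at 100 nM was level with its DMSO library within counting error. On the authors' TPM scale the 6 h values stood closer to DMSO or above it, with log2 ratios of -0.05 at 1000 nM and 0.34 at 100 nM. SNAI1, ZEB1 and ZEB2 also had higher ratios in TPM than in CPM in both of these libraries.

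With dCBP the fall deepened and the doses did not separate in 1 direction. SNAI2 was 32.5 CPM at 2 h and 15.5 CPM at 6 h with 1000 nM, and 35.9 and 11.1 CPM with 100 nM, the last being the lowest of the 20 libraries. The 6 h levels were 15.3% (13.2 to 17.7) and 11.0% (9.26 to 13.0) of DMSO. From 2 h to 6 h the level went to 47.6% (40.2 to 56.2) and 30.9% (25.7 to 37.1) of itself. The 1000 nM level was 90.5% of the 100 nM level at 2 h and 139% at 6 h.

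Over its 4 libraries the fitted log2 change of SNAI2 against DMSO was -2.35 (SE 0.53) for dCBP, -1.46 (SE 0.52) for IHK-44, -0.58 (SE 0.53) for A485 and -0.07 (SE 0.53) for JQAD. The fitted difference of 1000 nM from 100 nM was -2.02 (SE 0.16) for IHK-44, -0.66 (SE 0.15) for A485, 0.11 (SE 0.17) for dCBP and -0.02 (SE 0.15) for JQAD. Counting intervals cover counting error only. Since the assay is bulk RNA, a fall in some of the cells and a fall in all of them cannot be told apart. CPM is relative to the coding total of a library and does not measure RNA per cell.

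**Figure D2:**
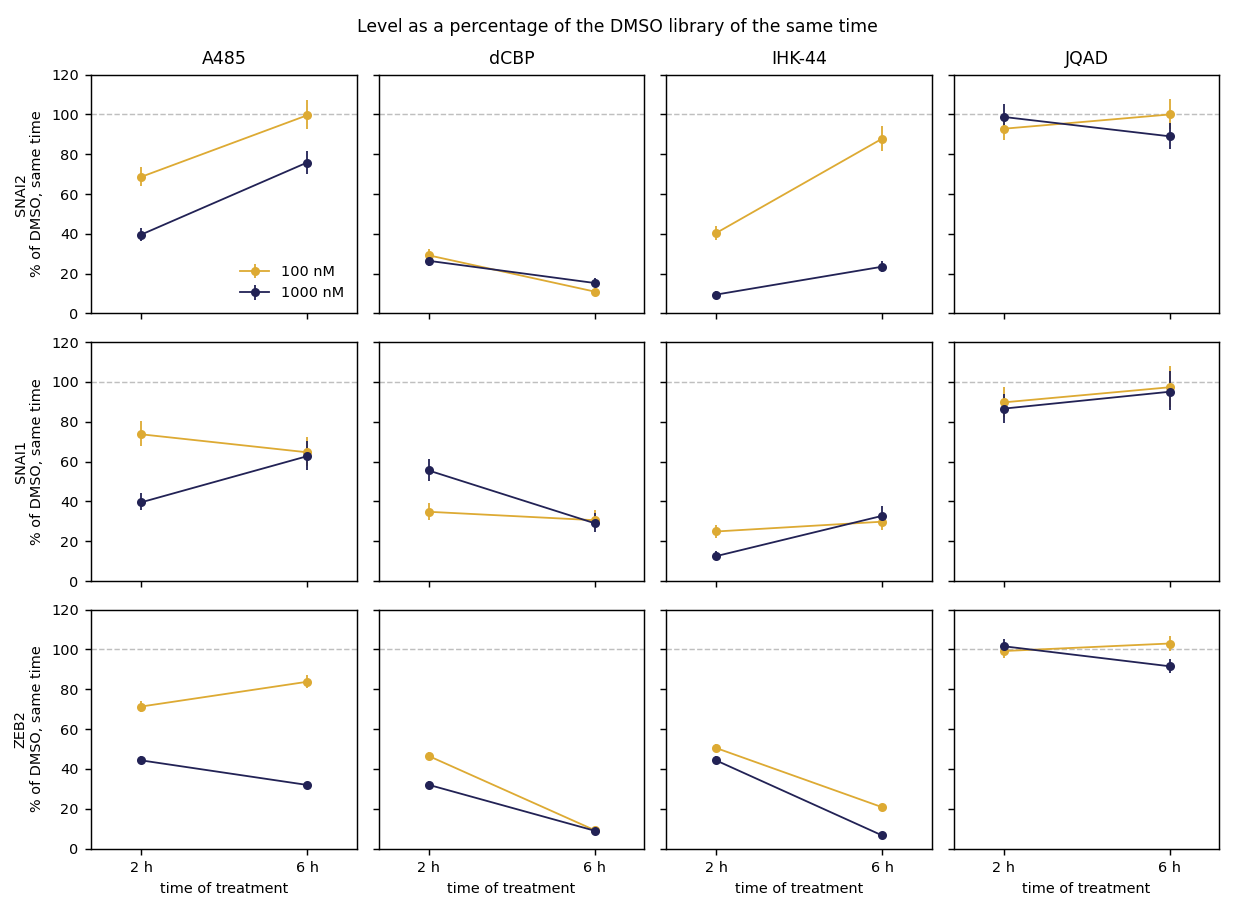
Levels of SNAI2, SNAI1 and ZEB2 as a percentage of the DMSO library of the same time (linear axis from 0), at 2 h and 6 h, with 95% counting intervals of the ratio and 1 line per dose. SNAI2 rises from 9.48 to 23.5% with IHK-44 at 1000 nM, and ZEB2 drops from 44.3 to 6.60% in the same pair of libraries.

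SNAI1, the Snail factor best known as a repressor of CDH1, fell with dCBP and IHK-44, and its lowest level was at 2 h with IHK-44 at 1000 nM. Its level dropped with culture time in the controls, from 75 to 50.6 CPM in DMSO and from 75.7 to 50.1 CPM in NT. JQAD libraries followed at 67.3 and 49.2 CPM (100 nM) and 64.9 and 48.1 CPM (1000 nM). All 12 libraries of the other 3 compounds lay below the control of their time.

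With IHK-44 SNAI1 was 9.36 CPM at 2 h and 16.5 CPM at 6 h (1000 nM) and 18.6 and 15.1 CPM (100 nM), or 12.5% (10.3 to 15.0), 32.7%, 24.9% and 29.8% of DMSO. With dCBP it was 41.6 and 14.7 CPM (1000 nM) and 26.1 and 15.4 CPM (100 nM), so at 2 h the lower dose gave the lower level. A485 gave 29.6 and 31.7 CPM (1000 nM) and 55.2 and 32.7 CPM (100 nM). The doses of IHK-44 and of A485 separated at 2 h, where 1000 nM left 50.2% (40.4 to 62.1) and 53.6% (47.8 to 60.04) of the 100 nM level, and not beyond counting error at 6 h.

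The fitted log2 change of SNAI1 was -2.13 (SE 0.29, adjusted p = 0.00036) for IHK-44 and -1.50 (SE 0.29, adjusted p = 0.0038) for dCBP, by the quasi-likelihood test of edgeR, adjusted over all genes by Benjamini-Hochberg. For A485 it was -0.80 (SE 0.29, adjusted p = 0.161) and for JQAD -0.12 (SE 0.29, adjusted p = 1). The A485 value was called only with DMSO and NT pooled as controls (adjusted p = 0.0463). Without the DMSO 6 h library the dCBP value was -1.53 with adjusted p = 0.0608.

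ZEB2, the ZEB factor best known from neural crest and neural development, was the highest member in CPM and dropped to the lowest share of DMSO among the members above 1 CPM. The level was 411 and 397 CPM in DMSO, 413 and 396 CPM in NT, 408 and 408 CPM with JQAD at 100 nM and 418 and 363 CPM with JQAD at 1000 nM (2 h and 6 h). IHK-44 gave 182 and 26.2 CPM at 1000 nM and 208 and 82.4 CPM at 100 nM. dCBP gave 132 and 35.5 CPM at 1000 nM and 191 and 36.6 CPM at 100 nM. Unlike SNAI2, ZEB2 was lower at 6 h than at 2 h in each of these 4 pairs, at 14.4% (13.0 to 15.9), 39.7%, 27% and 19.1% of its 2 h level in that order.

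With A485 ZEB2 depended on dose: 182 and 127 CPM at 1000 nM, and 293 and 332 CPM at 100 nM. The 1000 nM level was 62.1% (59.3 to 65.1) of the 100 nM level at 2 h and 38.1% (36.2 to 40.2) at 6 h. For IHK-44 the doses lay closer at 2 h (87.7%) than at 6 h (31.8%, interval 28.4 to 35.4). For A485 at 100 nM and 6 h ZEB2 was 83.8% of DMSO in CPM but above it on the TPM scale (log2 ratio 0.17).

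The fitted log2 change of ZEB2 was -2.39 (SE 0.56, edgeR adjusted p = 0.0101) for dCBP, -2.03 (SE 0.56, adjusted p = 0.0248) for IHK-44, -0.85 (SE 0.56, adjusted p = 0.407) for A485 and -0.02 (SE 0.57, adjusted p = 1) for JQAD. Both calls ended without the DMSO 6 h library, where the adjusted p was 0.171 for dCBP and 0.330 for IHK-44. The IHK-44 call also ended without its 1000 nM 6 h library (adjusted p = 0.0683) or its 100 nM 6 h library (adjusted p = 0.0661).

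ZEB1, the other ZEB repressor, stood closer to DMSO than ZEB2 did with dCBP and IHK-44 at 6 h in CPM. It was 106 and 124 CPM in DMSO, 106 and 125 CPM in NT, 97.3 and 127 CPM with JQAD at 100 nM and 98.1 and 105 CPM with JQAD at 1000 nM. At 2 h IHK-44 left it at 91.9 CPM (1000 nM) and 94.1 CPM (100 nM), and at 6 h it was 52.2 and 66.6 CPM. With dCBP it was 70.3 and 54.6 CPM (1000 nM) and 86.9 and 39.5 CPM (100 nM), so the lower dose again gave the lower level at 6 h. A485 gave 86.2 and 80.6 CPM at 1000 nM and 91.4 and 115 CPM at 100 nM. On the TPM scale ZEB1 was lower at 2 h than in CPM, with log2 ratios to DMSO of -1.08 (1000 nM) and -0.62 (100 nM) for dCBP and of -0.63 and -0.69 for IHK-44. The log2 ratio to DMSO turned above 0 on the TPM scale for A485 at 1000 nM and 2 h (0.02) and at 100 nM and 6 h (0.25). These shifts were not particular to ZEB1. With dCBP at 1000 nM for 2 h the log2 ratio went from -0.83 in CPM to -1.39 in TPM for SNAI1, from -1.89 to -2.40 for SNAI2 and from -1.64 to -2.12 for ZEB2. With A485 at 1000 nM for 2 h it went from -1.31 to -0.98, from -1.32 to -0.98 and from -1.17 to -0.83 for the same genes.

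The fitted log2 change of ZEB1 was -1.01 with dCBP (SE 0.26, edgeR adjusted p = 0.0156), a call that ended without the DMSO 6 h library (adjusted p = 0.252). For IHK-44 the value was -0.73 (SE 0.26, adjusted p = 0.0628), and it was called with DESeq2 (adjusted p = 0.0287), with DMSO and NT pooled (adjusted p = 0.0138) and without the IHK-44 100 nM 2 h library (adjusted p = 0.0417). It was -0.38 (SE 0.26, adjusted p = 0.444) for A485. ZEB1 counts were in part fractional, so some of its reads are shared with other loci, and because no strand setting is given in the sources used here, reads of the antisense genes ZEB1-AS1 and ZEB2-AS1 cannot be told apart from those of ZEB1 and ZEB2 where they overlap.

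TWIST1 was low and was not called for any compound. It held 47 to 113 counts per library, at 4.98 and 4.10 CPM in DMSO and 4.18 and 3.54 CPM in NT. At 6 h it was 5.80 to 7.37 CPM in the 6 libraries of A485, dCBP and IHK-44, or 141 to 180% of DMSO, and 4.14 and 4.26 CPM with JQAD. All 6 were thus above the DMSO, NT and JQAD libraries of that time. At 2 h the treated libraries were at 61.5 to 103% of DMSO. On the TPM scale the 6 h log2 ratios shrank to 0.09 for dCBP at 100 nM and 0.15 for IHK-44 at 1000 nM. SNAI1, SNAI2 and ZEB1 also had lower ratios in TPM than in CPM in both of these libraries. The fitted log2 change was 0.21 (SE 0.25, edgeR adjusted p = 0.533) for dCBP, 0.08 (SE 0.25, adjusted p = 0.838) for IHK-44 and 0.03 (SE 0.25, adjusted p = 0.95) for A485, and it turned below 0 for these 3 compounds when the DMSO 6 h library was left out (-0.10, -0.23 and -0.27).

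PRRX1 was near the floor. It had 35 and 16 counts in DMSO and 31 and 17 in NT, and 1 to 4 counts in the 6 h libraries of dCBP, IHK-44 and A485 at 1000 nM. Its fitted log2 change was -1.96 with dCBP (SE 0.53, edgeR adjusted p = 0.0179) and -1.80 with IHK-44 (SE 0.51, adjusted p = 0.0277). Both calls ended without either DMSO library, with adjusted p of 0.0601 and 0.0783 without the 2 h one and 0.170 and 0.252 without the 6 h one, and the IHK-44 call also ended without its 1000 nM 6 h (0.0779) or 100 nM 6 h library (0.0702). PRRX1 passed the filter on low counts through libraries other than those 5, so its fitted change rests on few counts. Of the paralogs outside the 7, SNAI3 was at 1.04 to 3.12 CPM and PRRX2 at 0 to 0.425 CPM.

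**Figure D3:**
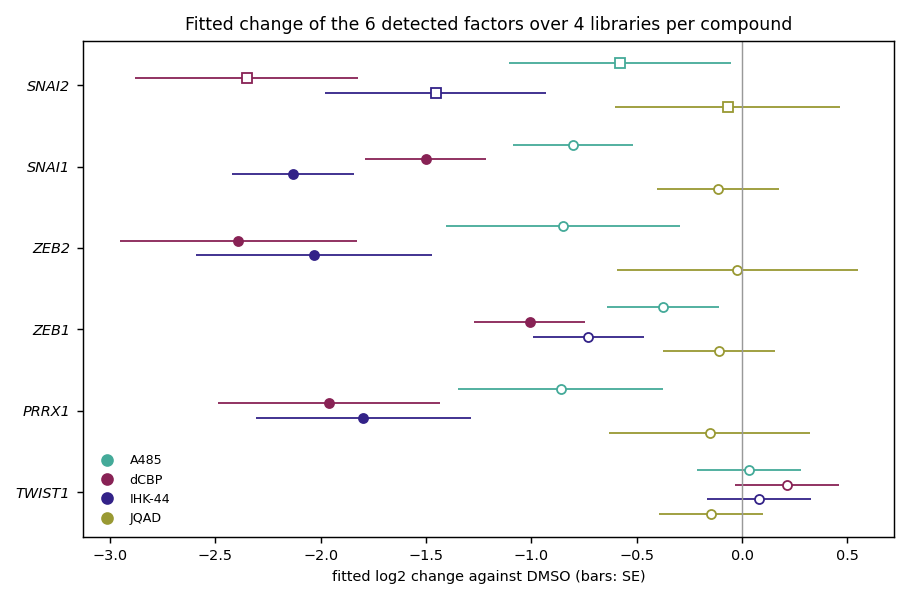
Fitted log2 change against DMSO with its SE for the 6 detected factors and 4 compounds, each over 4 libraries; filled circles passed the edgeR test at an adjusted p under 0.05, open circles did not, and the open squares of SNAI2 carry no test. SNAI1, ZEB2, ZEB1 and PRRX1 have filled circles for dCBP, the same genes except ZEB1 have them for IHK-44, and none is filled for A485 or JQAD.

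Counted over the compounds, 4 of the 5 tested members (SNAI1, ZEB1, ZEB2 and PRRX1) were called for dCBP, where 23.7% of the 13260 genes tested were called in either direction and 11.8% were called lower. For IHK-44 3 of 5 (SNAI1, ZEB2 and PRRX1) were called, beside 16.9% of all genes in either direction and 9.21% lower. For A485 none was called by edgeR or DESeq2, with 1 (SNAI1) at an unadjusted p under 0.05. Of all genes, 0.271% were called for A485 by edgeR at an adjusted p under 0.05, and 2533 of 13260 had an unadjusted p under 0.05. For JQAD and NT none was called by either tool and none had an unadjusted p under 0.05. There 0% of all genes were called, with 143 and 104 of 13260 at an unadjusted p under 0.05 and 0 called by DESeq2. The 4 libraries of a compound, which differ in dose and time, stand in for replicates in this fit. The spread of a gene is estimated once over all 20 libraries, DMSO, NT and JQAD included. The p-values therefore do not measure the spread between a compound's own libraries. The shared spread also holds effects of dose and differences between compounds in their time course. Leaving out a DMSO library leaves 1 library in that control, and calls over all genes for dCBP and IHK-44 then fell too. A member call that ended in such a fit is therefore not read as a trait of that gene.

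Library by library, ZEB2 was at least 2-fold below DMSO in 9 of the 16 treated libraries, SNAI1 and SNAI2 in 8 each, ZEB1 in 3 and TWIST1 in 0. SNAI2 was chosen by its values in these libraries, so its place in the counts of this paragraph follows from that choice and supports nothing further. Among the 5 members with a mean of at least 1 CPM, 4 (SNAI1, SNAI2, ZEB1 and ZEB2) were at least 2-fold below DMSO on the log2(CPM + 1) scale with dCBP at 6 h at 100 nM, where 6.97% of 12174 such genes were, and at 1000 nM, where 6.19% were, and with IHK-44 at 1000 nM and 6 h, where 6.78% were. At 2 h SNAI1, SNAI2 and ZEB2 passed it with IHK-44 at 1000 nM (1.70% of genes), A485 at 1000 nM (1.46%) and dCBP at 100 nM (1.27%), and SNAI2 and ZEB2 did with dCBP at 1000 nM (1.59%). SNAI1 and SNAI2 did so with IHK-44 at 100 nM for 2 h (1.37%), SNAI1 and ZEB2 for 6 h (5.97%), and ZEB2 with A485 at 1000 nM for 6 h (3.87%). No member passed it with A485 at 100 nM (0.0821% of genes at 2 h and 0.312% at 6 h) or with JQAD (0.0411% and 0.0246% at 100 nM, 0.0329% and 0.0575% at 1000 nM). The median gene was 0.14 to 0.22 above DMSO on the log2 scale in the 6 h libraries of dCBP, IHK-44 and A485 at 1000 nM.

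The compounds were compared with each other over the same 2 doses and 2 times, as 6 pairs in the same fit. A485 left SNAI1 higher than IHK-44 by 1.33 on the log2 scale (SE 0.25, edgeR adjusted p = 0.0213; 0.882% of all genes were called). That call ended without A485 100 nM 2 h (adjusted p = 0.0658), A485 100 nM 6 h (0.0840), IHK-44 1000 nM 2 h (0.0636) or IHK-44 100 nM 2 h (0.0563). SNAI2 differed by a fitted 0.87 (SE 0.45) between the same compounds, with no test.

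Between dCBP and IHK-44 no member was called by edgeR or DESeq2, and 1 (SNAI1) had an unadjusted p under 0.05. Of all genes, 0% were called by edgeR and 1 gene by DESeq2, with 883 of 13260 at an unadjusted p under 0.05. The difference of dCBP from IHK-44 was 0.63 for SNAI1 (95% interval, on 13 residual degrees of freedom, 0.08 to 1.18), -0.36 for ZEB2 (-1.38 to 0.66) and -0.28 for ZEB1 (-0.76 to 0.20) on the log2 scale, so a difference of about 2-fold in ZEB2 is inside its interval. Adjusted p were 0.696, 0.888 and 0.814 by edgeR. Between A485 and dCBP no member was called by edgeR or DESeq2 (0.724% of all genes were called by edgeR). There SNAI1, ZEB1, ZEB2 and PRRX1 had an unadjusted p under 0.05, as had 2840 of all 13260 genes. ZEB1 and ZEB2 were called without dCBP 100 nM 2 h (edgeR adjusted p = 0.0385 and 0.0351). In that fit 1175 of all 13241 genes were called.

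Against JQAD, which has the same doses and times, SNAI1, ZEB1, ZEB2 and PRRX1 were lower with dCBP (4 of 5, with 35.3% of all genes called) and with IHK-44 (4 of 5, with 32.5% called). The differences for dCBP were -1.39 for SNAI1 (SE 0.25, adjusted p = 0.0011), -2.37 for ZEB2 (SE 0.50, adjusted p = 0.0031), -0.90 for ZEB1 and -1.81 for PRRX1. For IHK-44 they were -2.02 for SNAI1 (SE 0.25, adjusted p = 9.9e-05), -2.01 for ZEB2 (SE 0.49, adjusted p = 0.0072), -0.62 for ZEB1 (SE 0.22, adjusted p = 0.0401) and -1.64 for PRRX1, all by edgeR. The ZEB1 value for IHK-44 lost its call without either 6 h library of IHK-44 (adjusted p = 0.148 and 0.107) or of JQAD (0.0846 and 0.121). Between A485 and JQAD edgeR called no member (4.91% of all genes were called, and 3427 of 13260 had an unadjusted p under 0.05), and DESeq2 called SNAI1 (-0.70, adjusted p = 0.0422).

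The effect of dose within a compound was not called for any of the 5 tested members by edgeR or DESeq2. The share of all genes called was 0.929% for A485, 0.107% for IHK-44 and 0% for dCBP and JQAD, where 150 and 262 of 13137 genes had an unadjusted p under 0.05 and DESeq2 called 0. For A485 and IHK-44 1394 and 315 of 13137 genes had an unadjusted p under 0.05. ZEB2 had an unadjusted p under 0.05 for A485 (-1.11, SE 0.27, edgeR adjusted p = 0.104) and for IHK-44 (-0.92, SE 0.28, adjusted p = 1.00). The first was called with no filter on low counts (adjusted p = 0.0168), and the second without IHK-44 1000 nM 2 h (-1.70, adjusted p = 0.0130) or 100 nM 2 h (-1.70, adjusted p = 0.0132), which leaves the 6 h pair.

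The test of time asked whether the difference from DMSO and NT was larger at 6 h than at 2 h. For ZEB1 the further log2 change was -1.08 with dCBP (SE 0.26, edgeR adjusted p = 0.0240) and -0.99 with IHK-44 (SE 0.26, adjusted p = 0.0273), and for ZEB2 it was -2.21 with dCBP (SE 0.63, adjusted p = 0.0439). ZEB2 with IHK-44 was at -1.90 (SE 0.62, adjusted p = 0.0709), and it was called with no filter on low counts (adjusted p = 0.0069) and without IHK-44 100 nM 6 h (-3.01, adjusted p = 0.0082). These 2 of 5 members for dCBP and 1 of 5 for IHK-44 stand beside 7.56% and 8.24% of all genes. Each of these 3 calls ended when any 1 of the 4 DMSO and NT libraries was left out, which leaves 1 library of that control. Calls over all genes fell in these fits too, so the loss is not read as a trait of ZEB1 or ZEB2. The further change of ZEB1 was then -1.07 to -1.05 with dCBP and -0.979 to -0.958 with IHK-44. That of ZEB2 with dCBP was -2.20. The ZEB2 call also ended without any 1 of the dCBP libraries (adjusted p = 0.0602 to 0.175). The ZEB1 call for dCBP ended without either 100 nM library (0.125 and 0.0739), and that for IHK-44 without either 1000 nM library (0.0632 and 0.133) or the 100 nM 2 h library (0.0988).

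SNAI1 and SNAI2 showed no such fall between the times with IHK-44: the fitted values were 0.62 (SE 0.41, edgeR adjusted p = 0.393) for SNAI1 and 1.01 (SE 0.74) for SNAI2, with no test for the latter. With A485 no tested member was called by edgeR or DESeq2, 1 (TWIST1, 1.01, SE 0.33, adjusted p = 0.505) had an unadjusted p under 0.05, and 0.00754% of all genes were called, with 1135 of 13260 at an unadjusted p under 0.05. With JQAD none was called by either tool or had an unadjusted p under 0.05, and 0% of all genes were called, with 202 at an unadjusted p under 0.05 and 0 by DESeq2.

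Across the 20 libraries the members fell into patterns that the log2(CPM + 1) levels describe. ZEB1 and ZEB2 had a Pearson correlation of 0.94, SNAI1 and SNAI2 of 0.82, and SNAI2 and ZEB2 of 0.78, while TWIST1 ran against the others at -0.49 to -0.72. The libraries share controls, doses and depth, so these are descriptions with no test. The 5 genes with levels most like those of SNAI2 among 12169 genes were TGIF1 (r = 0.98), a homeobox corepressor of TGF-beta signalling, PRDM12 (0.97), a factor of sensory neuron development, TNFAIP3 (0.97), the ubiquitin-editing enzyme A20, ZBTB18 (0.96), a zinc finger repressor, and CCN1 (0.96), a secreted matricellular protein.

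TGIF1 came closest also in level. It was 121 and 115 CPM in DMSO, 8.84 and 25.02 CPM with IHK-44 at 1000 nM, 49.5 and 76.3 CPM with IHK-44 at 100 nM, 17.5 and 12.3 CPM with dCBP at 1000 nM and 22.9 and 11.8 CPM with dCBP at 100 nM (2 h and 6 h). With A485 at 1000 nM it was 37.8 and 78.6 CPM. It thus rose from 2 h to 6 h with IHK-44 and A485 and fell with dCBP, as SNAI2 did. Likeness was what chose these genes, so it supports nothing further.

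**Figure D4:**
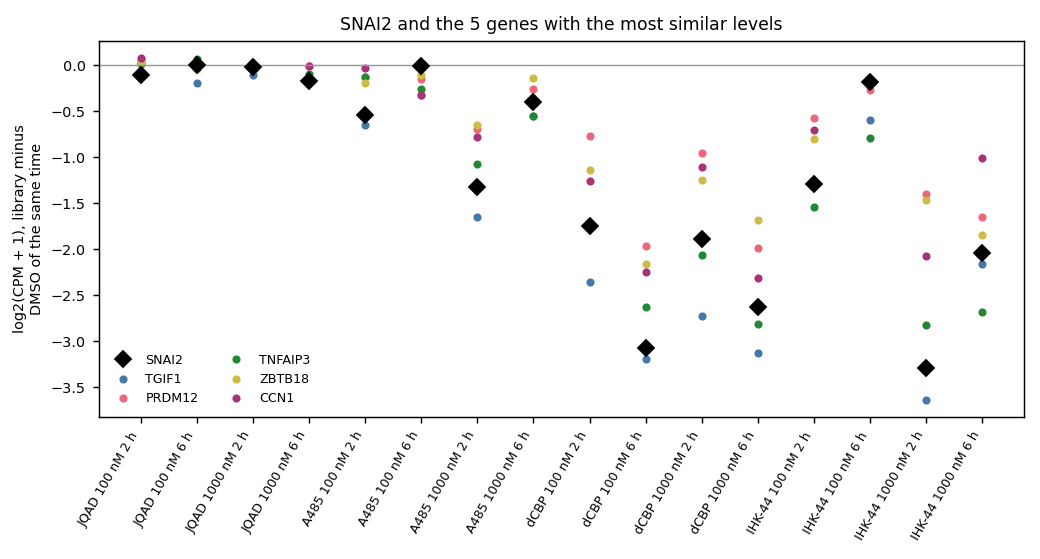
Difference from the DMSO library of the same time on the log2(CPM + 1) scale in the 16 treated libraries, for SNAI2 (black diamonds) and the 5 genes with the highest correlation with it. All 6 genes lie near 0 with JQAD, and SNAI2 and TGIF1 lie lowest with IHK-44 at 1000 nM for 2 h.

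The partners and regulators of these factors were taken from lists of textbook members, which were chosen with earlier results of these data known. Their counts are descriptions and stand beside all genes, of which 11.8% fell and 11.8% rose with dCBP and 9.21% fell and 7.74% rose with IHK-44 (edgeR, adjusted p under 0.05). Many of these calls ended when 1 library was left out: of the 50 genes of these lists called for dCBP 5 stayed called without DMSO 6 h, and of the 42 called for IHK-44 6 did. Without IHK-44 1000 nM 6 h 22 of the 42 stayed called, and over the other libraries left out, one at a time, 37 to 50 did for dCBP and 25 to 42 for IHK-44. The list of E proteins and ID inhibitors also holds HAND2, which is neither. Of this list 6 of 7 tested genes fell with dCBP, HAND2 (-0.54) among them. With IHK-44 4 of 7 fell (ID1, ID2, ID3 and TCF12), and none rose with either compound. The list's median was -1.20 and -1.03 on the log2 scale, against 0.05 and 0.04 over all genes. ID1 and ID3, inhibitors that take E proteins away from TWIST-type factors, fell most, with log2 changes of -1.63 (SE 0.31, dCBP) and -2.26 (SE 0.31, IHK-44) for ID1 and of -1.77 (SE 0.49) and -2.20 (SE 0.49) for ID3. ID3 was at 221.5 CPM in DMSO and 15.7 CPM with IHK-44 at 1000 nM, both at 2 h.

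Among 11 corepressors that Snail and ZEB factors recruit, 5 fell with dCBP (AJUBA, CTBP2, HDAC2, SIN3A and BMI1) and the same genes except BMI1 with IHK-44, and none rose, with a median of -0.09 and -0.07. AJUBA, a LIM adaptor of Snail proteins, was at -1.11 with dCBP and -0.78 with IHK-44. CTBP2, a corepressor of ZEB factors, was at -0.63 and -0.67. Of 11 genes for the turnover of Snail and Twist proteins, 1 fell and 2 rose with each compound. FBXL5, a ubiquitin ligase subunit, fell (-0.68 and -0.55), and FBXO45, another one, (0.46 and 0.51) and USP27X, a deubiquitinase, (0.77 and 0.82) rose.

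In TGF-beta signalling, a classic inducer of these factors, 6 of 15 tested genes fell with dCBP and 6 with IHK-44, and none rose (medians -0.26 and -0.33). The largest falls called for both were in feedback inhibitors of the pathway, SMAD7 (-1.82 with dCBP and -2.58 with IHK-44) and BAMBI (-1.60 and -2.0). BAMBI was also called for A485, at -1.46 (SE 0.25, edgeR adjusted p = 0.0299), the only gene of this list that was. That call ended without DMSO 2 h (adjusted p = 0.249), DMSO 6 h (0.519), A485 1000 nM 2 h (0.052) or A485 1000 nM 6 h (0.124). BAMBI was 33.6 and 30.6 CPM in DMSO and 7.95 and 8.53 CPM with A485 at 1000 nM.

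Of the textbook readouts of the programme, CDH1 was not detected above the floor, CDH2 was not called and VIM fell. CDH1 had at most 0.147 CPM in any library, under the floor of 3 counts, and was not tested. CDH2 (N-cadherin) was at 1.44 to 3.69 CPM, with a log2 change of 0.15 for dCBP (SE 0.26, edgeR adjusted p = 0.690) and -0.05 for IHK-44 (SE 0.26, adjusted p = 0.919). VIM (vimentin), the intermediate filament of mesenchymal cells, was at 1719 to 1899 CPM in the controls and 1147 CPM with IHK-44 at 1000 nM for 6 h. It fell by 0.53 on the log2 scale with dCBP (SE 0.15, edgeR adjusted p = 0.0202), and its value for IHK-44 was -0.48 (SE 0.15, adjusted p = 0.0361).

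Of 23 tested mesenchymal effector genes 10 fell with dCBP and 8 with IHK-44, and none rose (medians -0.35 and -0.33), among them ITGA5, a fibronectin receptor subunit, at -0.51 with each. Of the 27 epithelial genes 11 were tested, with medians of 0.48 and 0.50. OCLN (occludin) fell with dCBP (-0.47) and DSP (desmoplakin) rose with IHK-44 (2.03), both named after their values were seen as the only calls of that list. The list's summed level was 48.8 to 57.2 CPM in the DMSO and NT libraries and 44.3 to 76.9 CPM in the treated ones, highest with IHK-44 at 1000 nM for 6 h.

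Among other mesenchymal and neural crest transcription factors 17 of 24 tested fell with dCBP and 14 with IHK-44, while 2 rose with each (medians -1.45 and -1.57). With A485 1 was called, TBX2 (-1.23, edgeR adjusted p = 0.0387), named after its value was seen, and that call ended without the same 4 libraries, one at a time (adjusted p = 0.112 to 0.519). TFAP2B, which is also one of the rhabdomyosarcoma markers, was at -2.54 with dCBP and -2.28 with IHK-44. MSX1, a homeobox factor of neural crest, rose with both, by 1.71 for dCBP and 1.54 for IHK-44 (SE 0.26 each), and FOXD3, an early neural crest factor, by 1.12 and 1.10.

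The rhabdomyosarcoma markers moved beside these lists: 6 of 9 fell with dCBP and 5 with IHK-44 (medians -1.21 and -0.94). Their sum was 3133 to 3401 CPM in the DMSO and NT libraries and 1493 to 3653 CPM in the treated ones, lowest with IHK-44 at 1000 nM for 6 h. Their part in the results of the factors was not tested.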

How the data were processed

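RNA-seq of RH4 cells was analysed from the deposited tables of 20 libraries; the 12 other samples of the series were not analysed here. STAR 2.5.3a, RSEM 1.3.3 and hg38 are named in the submitters' processing notes without a role. The deposited tables hold, per coding gene, expected counts (88.2% whole numbers), TPM, FPKM (not used) and CPM, which the authors' tables scale to the coding total of a library. Coding rows held 27.9 to 53.9% of the deposited TPM. This share differed between libraries, so a shift between CPM and TPM ratios is not read as a trait of 1 gene.

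Rounded expected counts went into edgeR 4.0.16 (R 4.3.3; TMM scaling, filterByExpr with a minimum count of 10, quasi-likelihood, Benjamini-Hochberg over all genes, threshold 0.05). SE is the fitted log2 change divided by the square root of F. The compound fit had a level per compound, DMSO and NT plus time (13 residual degrees of freedom). The dose fit used compound and time blocks (4), and the time fit an interaction (9). Scripts were tested on simulated data. Library ratios used log2(CPM + 1), a 2-fold threshold, and exact Clopper-Pearson 95% intervals. A count of 0 was read as up to 3 counts. Alternatives were DESeq2 1.42.0, limma 3.58.1, other scaling, filters and controls, and leaving out libraries. Start sites came from RefSeq (GRCh38.p14).

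Members and lists were chosen with earlier results of these data known. Named were all members, the 5 genes most correlated with SNAI2, the 2 largest falls and rises per list among genes called for both dCBP and IHK-44, and CDH1, CDH2 and VIM. A gene named by this rule is not reported here.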

Additional observations from a re-analysis of the deposited data

Results flagged for a closer look

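In the direct test between compounds 4 members were called in at least 1 pair. The share of all genes called was 0.882% for A485 and IHK-44, 35.3% for dCBP and JQAD and 32.5% for IHK-44 and JQAD. SNAI1 was higher with A485 than with IHK-44 by 1.33 on the log2 scale, a call that ended when any 1 of 4 libraries was left out. Relative to JQAD the difference was -1.39 (dCBP) and -2.02 (IHK-44) for SNAI1, -0.90 and -0.62 for ZEB1, -2.37 and -2.01 for ZEB2, and -1.81 and -1.64 for PRRX1. The ZEB1 call for IHK-44 ended without any 1 of the 6 h libraries of IHK-44 or JQAD. The difference from the DMSO and NT controls also changed between 2 h and 6 h, by -1.08 for ZEB1 with dCBP, -0.99 for ZEB1 with IHK-44 and -2.21 for ZEB2 with dCBP. For time 7.56% (dCBP) and 8.24% (IHK-44) of all genes were called. Each of these member calls ended when any 1 of the DMSO and NT libraries was left out, and calls over all genes fell in those fits too.

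SNAI2 moved in opposite directions from 2 h to 6 h in all libraries of these compounds, and the difference was not tested. Its log2 change over that time, as a mean of both doses, was higher with A485 than with dCBP by 1.76 and than with JQAD by 0.75. The difference of dCBP from IHK-44 was -2.21, and that of IHK-44 from JQAD was 1.20. With JQAD itself the change was -0.43 (1000 nM) and -0.17 (100 nM), beside -0.28 in DMSO and -0.24 in NT.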

How the results depend on the processing

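With single libraries left out, the number of the 5 tested members called went from 4 to between 0 and 4 for dCBP (0 without DMSO 6 h), and from 3 to between 1 and 4 for IHK-44. For the pairs it ranged from 0 to 1 (A485 and IHK-44; 1 with all libraries) and 0 to 2 (A485 and dCBP; 0 with all), for the IHK-44 dose from 0 to 1, and for time from 0 to 2 with IHK-44 and 0 to 1 with dCBP. Over all genes the pairs ranged from 23 to 234 calls (A485 and IHK-44) and from 16 to 1175 (A485 and dCBP) with single libraries left out. With no filter 1 member (ZEB2) was called for the A485 dose, beside 243 of 16895 genes. For time with IHK-44 2 members were called with no filter, beside 1288 of 17017 genes. Pooling DMSO and NT called 1 for A485, and DESeq2 called 1 for A485 against JQAD. A 1.5-fold threshold gave 3 member and library combinations above DMSO, against 0, and 35 below, against 28, with SNAI2 included. The 3 above were all TWIST1 at 6 h, with A485 at 1000 nM and with dCBP at 1000 and 100 nM. The share of all genes at 1.5-fold was not counted, and SNAI2 was chosen by its values. These totals are therefore a description only.

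The fitted change of TWIST1 ranged from -0.27 to 0.39 for A485, -0.23 to 0.43 for IHK-44 and -0.10 to 0.56 for dCBP, lowest without DMSO 6 h and highest without DMSO 2 h. It also turned, for A485, without its 1000 nM 6 h (-0.08) or 100 nM 6 h library (-0.003). The cause was not tested. Counts over all genes moved too: with all libraries 36 (A485), 3137 (dCBP) and 2247 (IHK-44) were called, and 871, 5344 and 4605 with DMSO and NT pooled, while over single libraries left out they ranged over 0 to 257, 118 to 3883 and 125 to 2790. DESeq2 called 385 for A485, 424 against 117 (A485 and IHK-44), 521 against 96 (A485 and dCBP), 1108 against 651 (A485 and JQAD), and 30 against 14 for the IHK-44 dose, 227 against 122 for the A485 dose and 16 against 1 for time with A485. No paired analysis was possible because the labels give no replicate numbers and each condition has 1 library; the dose fit itself compares the doses within each compound and time.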
